A study of Mus musculus with 18 samples.

Results

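Of the 9 genes chosen as NF-kB components and feedback inhibitors (Nfkbia, Nfkbie, Nfkb1, Nfkb2, Rela, Relb, Bcl3, Tnfaip3 and Zfp36), 8 were represented by 12 probe sets on the arrays, out of 20380 probe sets annotated to a single gene. A probe set was a member if its one gene symbol was on this list. The rule uses no measured value, but the list was drawn up with earlier results of these data known. Relb, Bcl3, Rela, Nfkbie, Tnfaip3 and Zfp36 had 1 probe set each, Nfkb2 had 2 and Nfkbia had 4, and Nfkb1 was not analysed here. Of the 8 genes, 7 had a probe set above a log2 value of 4 in at least 3 of the 18 samples and were tested among 7092 genes that met this filter; Nfkbie did not meet it.

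NF-kB is a family of dimeric transcription factors that is held in the cytoplasm by IkB inhibitor proteins and reaches the nucleus when IkB kinase marks these inhibitors for degradation. In the classical arm the RelA (Rela) and p50 (Nfkb1) dimer answers tumour necrosis factor, interleukin 1 and Toll-like receptors within minutes, and in the slower non-canonical arm the p100 precursor (Nfkb2) is processed to p52, which pairs with RelB (Relb). Several inhibitors, among them Nfkbia, Nfkbie and Tnfaip3, are themselves induced by NF-kB and so limit its activity, and in the arterial wall the pathway is known for the expression of adhesion molecules and chemokines by endothelial and smooth muscle cells.

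The samples were aortas of wild type male C57Bl/6 mice, and every animal, controls included, had received the mineralocorticoid receptor antagonist spironolactone at 20 mg/kg/day for 5 days from a pellet under the skin. The excised vessels were cultured in DMEM with 100 nM aldosterone or with vehicle for 2, 4 or 8 h. Each of the 6 groups held 3 biological replicates, each made from 3 aortas. The labels do not state how old the mice were. There was no uncultured aorta among the samples, so 2 h in culture is the earliest point and all changes with time are changes within culture. Total RNA was hybridised to 1-colour Affymetrix arrays, and values are log2 expression after GCRMA, a background correction and normalization that uses probe sequence. All 6 smooth muscle, 5 fibroblast and 6 macrophage markers listed for this tissue met the filter, as did 5 of 6 endothelial markers (Tie1 did not). Values of whole tissue cannot tell fewer cells of a type from less RNA per cell.

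To show what lies upstream of the 3 members called lower after 8 h in culture (Zfp36, Nfkbia and Nfkb2 on its brighter probe set), the 250 bases before the annotated start are printed here. The other Nfkb2 probe set was called higher at 8 h than at 2 h in both treatments. The dim member Tnfaip3 is added for contrast. Sequences are from RefSeq on GRCm38.p6 and read along the strand of each gene. Capitals mark each stretch that matched the NF-kB (kB) consensus, searched on both strands, with overlapping matches joined into one stretch. Nfkbia is on the minus strand at chr12:55492648-55492897, Nfkb2 on the plus strand at chr19:46304487-46304736 (the first of its 3 starts), Tnfaip3 on the minus strand at chr10:19015411-19015660 (1 of 2 starts), and Zfp36 on the minus strand at chr7:28379229-28379478.
Nfkbia: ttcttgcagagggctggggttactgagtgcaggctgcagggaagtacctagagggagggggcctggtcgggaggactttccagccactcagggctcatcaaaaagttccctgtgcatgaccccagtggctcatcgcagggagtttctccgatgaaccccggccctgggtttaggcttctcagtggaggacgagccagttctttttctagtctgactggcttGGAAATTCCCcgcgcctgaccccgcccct
Nfkb2: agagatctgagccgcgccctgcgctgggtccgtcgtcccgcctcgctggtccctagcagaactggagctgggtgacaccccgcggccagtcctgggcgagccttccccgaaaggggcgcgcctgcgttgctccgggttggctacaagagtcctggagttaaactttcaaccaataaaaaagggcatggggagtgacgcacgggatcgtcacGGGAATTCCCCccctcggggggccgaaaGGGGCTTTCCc
Tnfaip3: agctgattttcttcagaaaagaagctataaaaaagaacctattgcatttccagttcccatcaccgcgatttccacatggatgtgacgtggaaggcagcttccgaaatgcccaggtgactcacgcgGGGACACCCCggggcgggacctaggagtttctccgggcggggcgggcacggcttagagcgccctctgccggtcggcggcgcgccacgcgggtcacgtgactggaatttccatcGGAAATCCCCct
Zfp36: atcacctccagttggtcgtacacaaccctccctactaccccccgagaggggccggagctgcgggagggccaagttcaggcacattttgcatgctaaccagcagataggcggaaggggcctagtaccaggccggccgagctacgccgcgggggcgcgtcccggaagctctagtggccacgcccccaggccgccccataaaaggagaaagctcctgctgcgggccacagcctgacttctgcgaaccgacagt
The Nfkbia window held 1 match, 29 bases upstream of the start, and the Nfkb2 window held 2 stretches, 39 and 11 bases upstream. Tnfaip3 held 2, at 125 and 12 bases, and Zfp36, Rela and Bcl3 had none of these letters in their windows. At least 1 window matched in 4 of the 7 members found in the sequence table (Nfkbie was the fourth), against 4.5% of all 27025 genes in it. A match is a run of letters and was not tested for binding.

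One array stood apart. Vehicle 2 h replicate 1 had a median of 4.42 over all probe sets, against 4.01 to 4.09 in the other 17 arrays, and 908 of the 7092 genes in it lay more than 1 log2 unit from the mean of its group mates, against 17 to 239 in each of the others. Its Relb, Bcl3, Rela and Zfp36 values were 0.66, 0.68, 0.55 and 0.63 above the mean of the other 2 vehicle samples of that time, and Tnfaip3 was 1.05 above. Nfkbia was 0.01 above, and the median gene 0.42 above. Values without this array are given below for several of the calls it changed, and for the vehicle 2 h comparisons of the members described most fully.

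In aldosterone against vehicle cultures, none of the 7 tested members passed an adjusted p of 0.05 (limma, Benjamini-Hochberg over 7092 genes) at 2, 4 or 8 h, in the average over the 3 times, or in the test of whether the aldosterone effect differed between times. Over all genes, 0.0705% passed at 2 h (0.0423% higher and 0.0282% lower), 0.24% at 4 h (0.226% and 0.0141%), 1% at 8 h (0.86% and 0.141%), 1.1% in the average (0.86% and 0.24%) and 0.155% in the test between times. The 3 aldosterone samples lay wholly above the 3 vehicle samples for 0 members at 2, 4 and 8 h, where 3.41%, 5.8% and 9.11% of genes showed this, and wholly below them for 1 member at each time (Zfp36, Bcl3 and Relb), where 10.5%, 4.77% and 5.36% of genes did. At an unadjusted p under 0.05 there were 2 members at 2 h (Zfp36, and Nfkb2 on its brighter probe set), 0 at 4 h and 1 at 8 h (Relb). There were 0 in the average and 1 in the test between times (Zfp36). Of all 7092 genes, 782, 267 and 444 had such a p at 2, 4 and 8 h. In the average 598 genes had it, and in the test between times 420. The median member differed by -0.21, -0.02 and 0.10 at 2, 4 and 8 h, where the median of all genes differed by -0.07, 0.01 and 0.01. In the same comparisons 0, 6 and 7 of 8 corticosteroid target genes rose at 2, 4 and 8 h, among them Fkbp5, a co-chaperone of steroid receptors, with log2 differences of 1.90 at 4 h and 2.80 at 8 h. The count at 4 h ran from 2 to 8 over 28 alternative settings, and was 2 with no filter, without vehicle 4 h replicate 3 and without any 1 of the 3 aldosterone 4 h replicates. The count at 2 h was 2 with median centring, with array weights and without vehicle 2 h replicate 1, and 1 with quantile normalization.

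**Figure D1:**
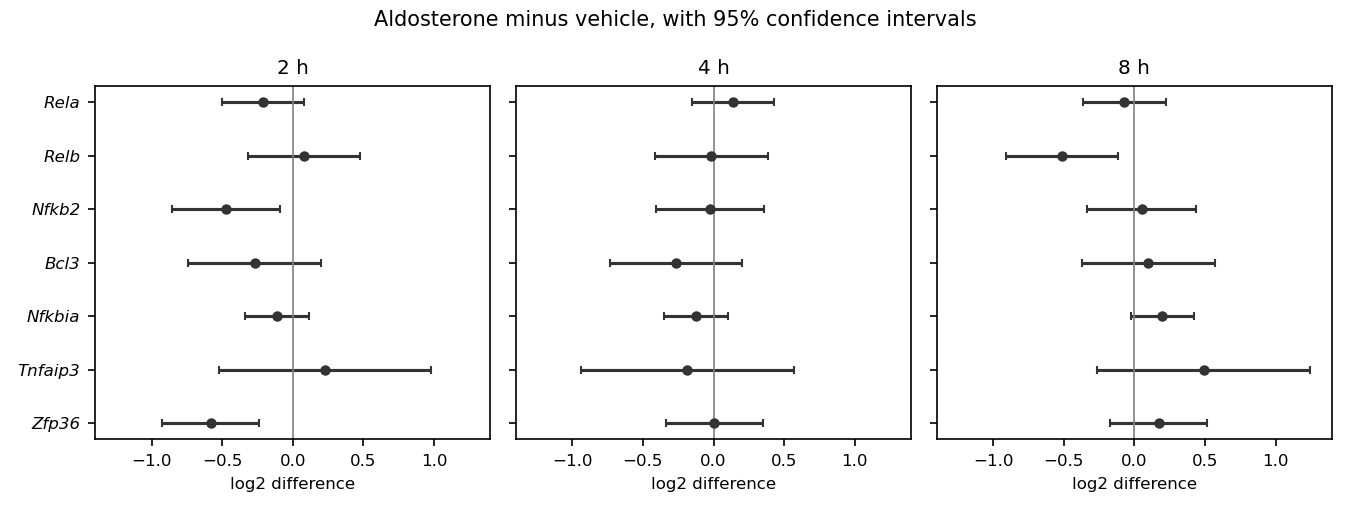
Log2 difference between aldosterone and vehicle cultures for the 7 tested members at 2, 4 and 8 h; points are estimates from 3 samples against 3 and bars are 95% confidence intervals. The intervals of Zfp36 and Nfkb2 at 2 h and of Relb at 8 h lie below 0, and no member passed after adjustment over 7092 genes.

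Zfp36 encodes tristetraprolin, which binds AU-rich elements and speeds the decay of cytokine mRNAs. At 2 h its log2 values were 11.35, 11.25 and 11.37 in aldosterone cultures and 12.32, 11.54 and 11.84 in vehicle cultures. All 3 aldosterone samples lay below all 3 vehicle samples. The difference was -0.58 ± 0.16 (SE, 95% confidence interval -0.92 to -0.24, adjusted p = 0.221), and without vehicle 2 h replicate 1 it was -0.37 (adjusted p = 0.214). At 4 h the groups overlapped, with 10.49, 10.20 and 10.03 in aldosterone cultures and 10.28, 10.39 and 10.03 in vehicle cultures. At 8 h Zfp36 had 9.19, 9.05 and 9.18 in aldosterone cultures and 8.99, 9.08 and 8.83 in vehicle cultures, again with overlap, and the difference was 0.17 ± 0.16. The effect at 8 h exceeded that at 2 h by 0.75 ± 0.23 (adjusted p = 0.31, and 0.54 without vehicle 2 h replicate 1), so a change of the effect with time did not pass the test.

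Relb, the activating partner of p52, stood at 6.57, 6.45 and 6.84 in aldosterone cultures at 8 h and at 7.34, 7.08 and 6.97 in vehicle cultures. The groups did not overlap, and the difference was -0.51 ± 0.19 (95% confidence interval -0.91 to -0.11, adjusted p = 0.473). It passed in 1 of 28 alternative settings, with arrays weighted by quality (-0.56, adjusted p = 0.0271). At 2 h Relb was 5.40, 5.55 and 5.62 with aldosterone and 5.89, 5.22 and 5.23 with vehicle, and at 4 h it was 5.70, 5.56 and 5.30 with aldosterone and 5.58, 5.40 and 5.62 with vehicle. The groups overlapped at both of these times.

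Nfkb2 had 2 probe sets. On the brighter, 1429128_x_at, which stood for the gene, the values at 2 h were 6.97, 6.89 and 7.12 with aldosterone and 7.75, 7.66 and 6.99 with vehicle, a difference of -0.47 ± 0.18 (adjusted p = 0.351, and -0.33 without vehicle 2 h replicate 1), with overlap through the third vehicle sample. On the other, 1425902_a_at, the values at 2 h were 5.79, 5.82 and 6.04 with aldosterone and 6.05, 5.53 and 5.78 with vehicle, a difference of 0.10 ± 0.19. The probe sets thus gave different signs at 2 h, and neither difference passed.

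Bcl3 encodes an atypical, nuclear IkB protein that binds p50 and p52 dimers. At 4 h it had 6.37, 6.29 and 6.23 with aldosterone and 6.60, 6.41 and 6.68 with vehicle. These groups did not overlap, and the difference of -0.27 ± 0.22 did not pass (adjusted p = 0.999). Rela, the main activating subunit, differed by -0.21 ± 0.14, 0.14 ± 0.14 and -0.07 ± 0.14 at 2, 4 and 8 h, and its 6 group means all lay between 8.70 and 8.99. Its 95% confidence intervals ran from -0.50 to 0.08 at 2 h, from -0.16 to 0.43 at 4 h and from -0.36 to 0.22 at 8 h.

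Nfkbia encodes IkB alpha, the inhibitor that is degraded and resynthesised after each stimulus. On its brightest probe set, 1420088_at, the values at 8 h were 12.77, 12.67 and 12.61 with aldosterone and 12.30, 12.49 and 12.66 with vehicle, which overlap, and the difference was 0.20 ± 0.11 (adjusted p = 0.902). Its 3 other probe sets gave 0.30 ± 0.15 (1449731_s_at), 0.53 ± 0.19 (1448306_at) and 0.34 ± 0.21 (1420089_at) at 8 h. All 4 estimates were positive and none passed, with 1448306_at nearest (adjusted p = 0.428): its 9.46, 9.49 and 9.61 with aldosterone lay above its 9.25, 8.80 and 8.92 with vehicle. The probe sets measure 1 transcript in the same samples and are not independent of each other. At 2 h the 4 estimates ran from -0.28 on 1449731_s_at to 0.00 on 1448306_at, and at 4 h from -0.15 on 1420089_at to 0.08 on 1448306_at, again with none past the threshold.

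Tnfaip3 encodes A20, a ubiquitin-editing enzyme that switches off signalling upstream of IkB kinase. Its values lay between 2.16 and 4.36, with 4 of 18 samples above 4, so its differences are imprecise: 0.23 ± 0.36 at 2 h, -0.18 ± 0.36 at 4 h and 0.49 ± 0.36 at 8 h. At 8 h the samples were at 4.15, 3.66 and 4.28 with aldosterone and 3.93, 3.41 and 3.27 with vehicle, and the groups overlapped. Nfkbie encodes IkB epsilon, a further inhibitor induced by NF-kB. All its 18 samples lay between 2.72 and 3.04, below the filter level in every sample, and it was not tested.

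Cell type markers also differed between treatments at some times, and their part in the results above was not tested. At 2 h the summed level of the 4 neutrophil markers on the arrays was 4.99 to 5.29 with aldosterone and 6.07 to 6.89 with vehicle on the log2 scale. At 4 h this sum ran from 5.19 to 7.41 with aldosterone and from 5.35 to 6.91 with vehicle, so it spread widely within a group. At 8 h it was 4.87 to 5.07 with aldosterone and 5.04 to 5.11 with vehicle. Of the 4 neutrophil markers, S100a8 and S100a9 met the filter and Mpo and Elane did not. The summed smooth muscle markers at 2 h lay at 16.09 to 16.16 with aldosterone and 15.56 to 16.05 with vehicle. At 8 h the 4 adipocyte markers summed to 13.87 to 14.13 with aldosterone and 13.45 to 13.57 with vehicle. The 5 lymphocyte markers on the arrays summed at 2 h to 5.15 to 5.22 with aldosterone and 5.25 to 5.70 with vehicle. Of these 5 only Ms4a1 met the filter, and its own level is not given here. Macrophage, fibroblast and endothelial sums overlapped between treatments at each time.

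**Figure D2:**
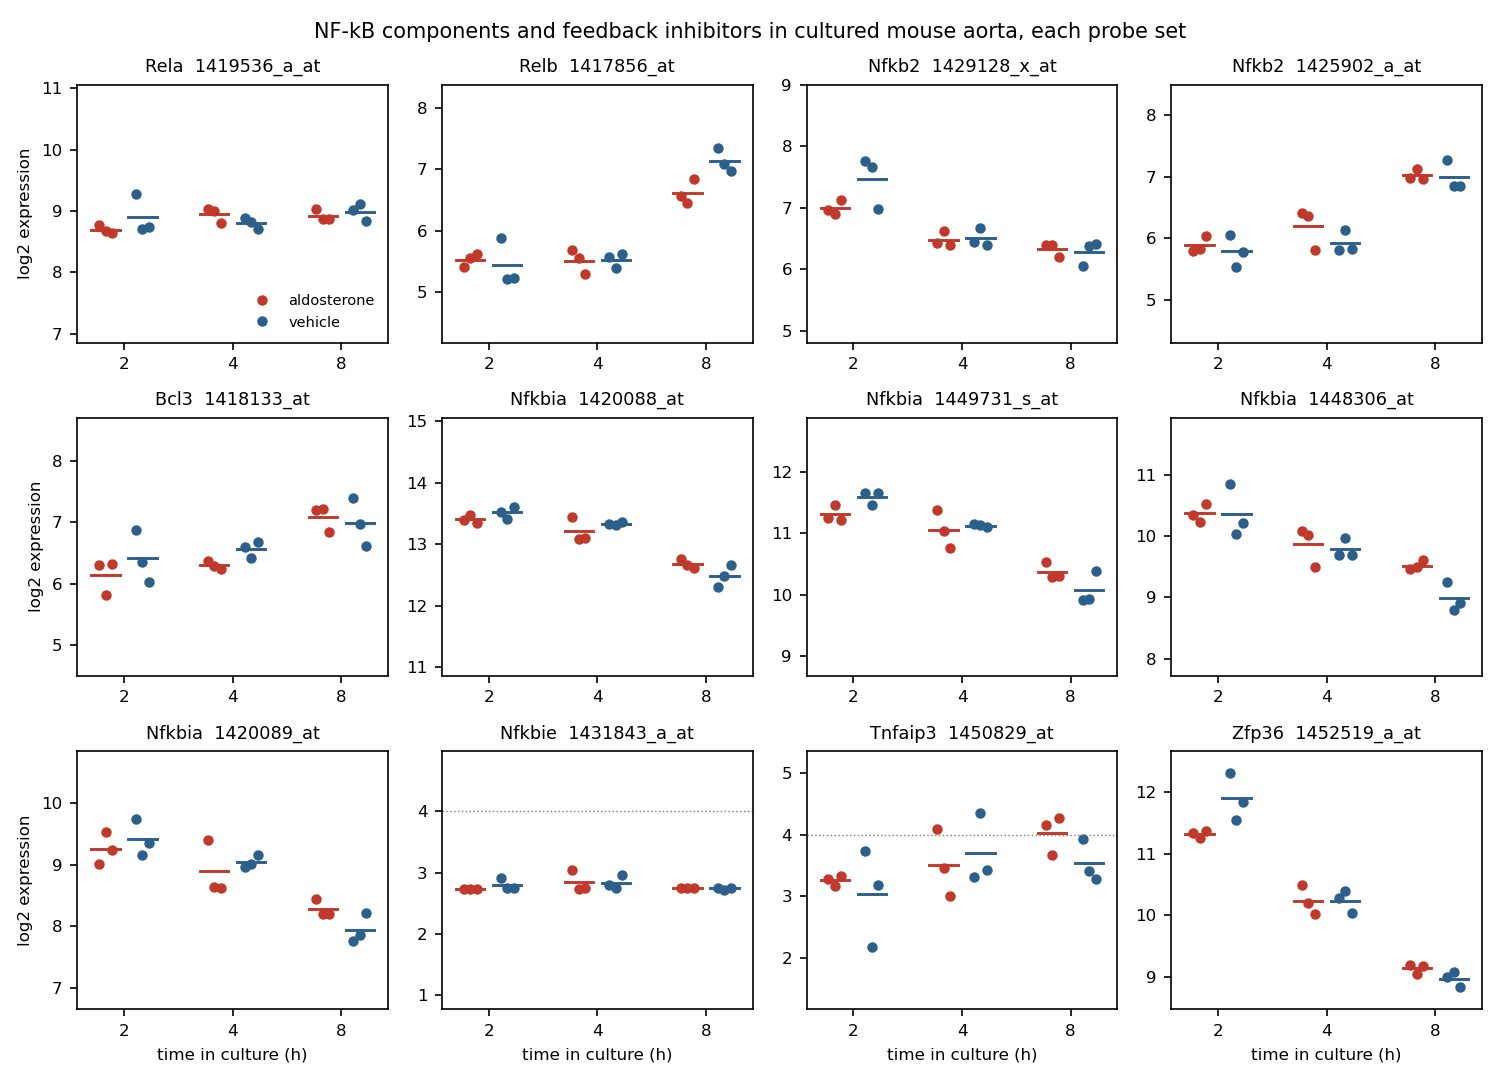
Log2 expression of all 12 member probe sets in each of the 18 samples (points) with group means (lines), aldosterone left of vehicle at each time; the dotted line in the Nfkbie and Tnfaip3 panels is the filter level of 4, and vertical axes start at different levels. Zfp36 and Nfkbia step down with time, Relb steps up at 8 h, and the highest of the 3 vehicle 2 h samples in the Zfp36, Relb, Bcl3 and Rela panels is replicate 1.

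Over time in culture, against 2 h, 5 of 7 members differed at 8 h under aldosterone and 5 of 7 under vehicle, the same 2 genes higher (Relb and Bcl3) and the same 3 lower (Zfp36, Nfkbia and Nfkb2 on its brighter probe set). Of all genes, 56.5% passed for 8 h against 2 h under aldosterone (29.2% higher and 27.3% lower) and 58.5% under vehicle (26.6% higher and 31.9% lower), so the number of members called is not in itself a result about these genes. Comparisons within a treatment share the samples of a time. The 8 h samples lay wholly above the 2 h samples for 4 members under aldosterone (Relb, Bcl3, Rela and Tnfaip3) and 1 under vehicle (Relb), as for 38% and 24.2% of all genes, and wholly below them for Zfp36, Nfkbia and Nfkb2 in both, as for 33.6% of genes under aldosterone and 33% under vehicle.

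Zfp36 fell at each step and by more than any other member in both treatments. Under aldosterone its group means were 11.32, 10.24 and 9.14 at 2, 4 and 8 h, a fall of 1.08 ± 0.16 by 4 h (adjusted p = 7.81e-05) and a further fall of 1.10 ± 0.16 by 8 h (adjusted p = 5.51e-05). Under vehicle the means were 11.90, 10.23 and 8.97, with falls of 1.67 ± 0.16 (adjusted p = 7.95e-07) and 1.27 ± 0.16 (adjusted p = 1.33e-05). Samples of successive times did not overlap in either treatment; such a drop was seen in 30.9% of genes under aldosterone and 28.8% under vehicle for the first step, and in 25.6% and 24.1% for the second. At 8 h the level was 4.54-fold lower than at 2 h under aldosterone (adjusted p = 6.48e-09) and 7.65-fold lower under vehicle (adjusted p = 1.41e-10), and the log2 fall under vehicle was 2.73 without vehicle 2 h replicate 1.

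Nfkbia fell over time on all 4 probe sets. Its brightest probe set had 13.40, 13.47 and 13.35 at 2 h, 13.45, 13.08 and 13.10 at 4 h and 12.77, 12.67 and 12.61 at 8 h under aldosterone. Under vehicle it had 13.53, 13.41 and 13.61 at 2 h, 13.33, 13.31 and 13.36 at 4 h and 12.30, 12.49 and 12.66 at 8 h. On this probe set the step to 4 h did not pass in either treatment (-0.20 ± 0.11 under aldosterone, adjusted p = 0.158, and -0.19 ± 0.11 under vehicle, adjusted p = 0.18), and the level then fell by 0.53 ± 0.11 by 8 h under aldosterone (adjusted p = 0.000897) and by 0.85 ± 0.11 under vehicle (adjusted p = 1.04e-05). The first step differed between probe sets. Under vehicle, 1448306_at fell by 0.58 (adjusted p = 0.0264) and 1449731_s_at by 0.46 (adjusted p = 0.0222) by 4 h, and 1420089_at gave -0.37 (adjusted p = 0.168). Under aldosterone none of the 3 passed for this step, and 1448306_at gave -0.50 by 4 h (adjusted p = 0.0515) and -0.34 for 8 h against 4 h (adjusted p = 0.181). With the mean of probe sets standing for the gene, the vehicle step to 4 h passed (-0.40, adjusted p = 0.0248), and under aldosterone it passed with array weights (-0.22) and without aldosterone 4 h replicate 1 (-0.31). For 8 h against 2 h the other 3 probe sets, tested in a fit of all probe sets, changed by -0.85 to -0.98 under aldosterone and -1.38 to -1.51 under vehicle, each past the threshold. On the brightest one the changes were -0.73 under aldosterone and -1.04 under vehicle.

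**Figure D3:**
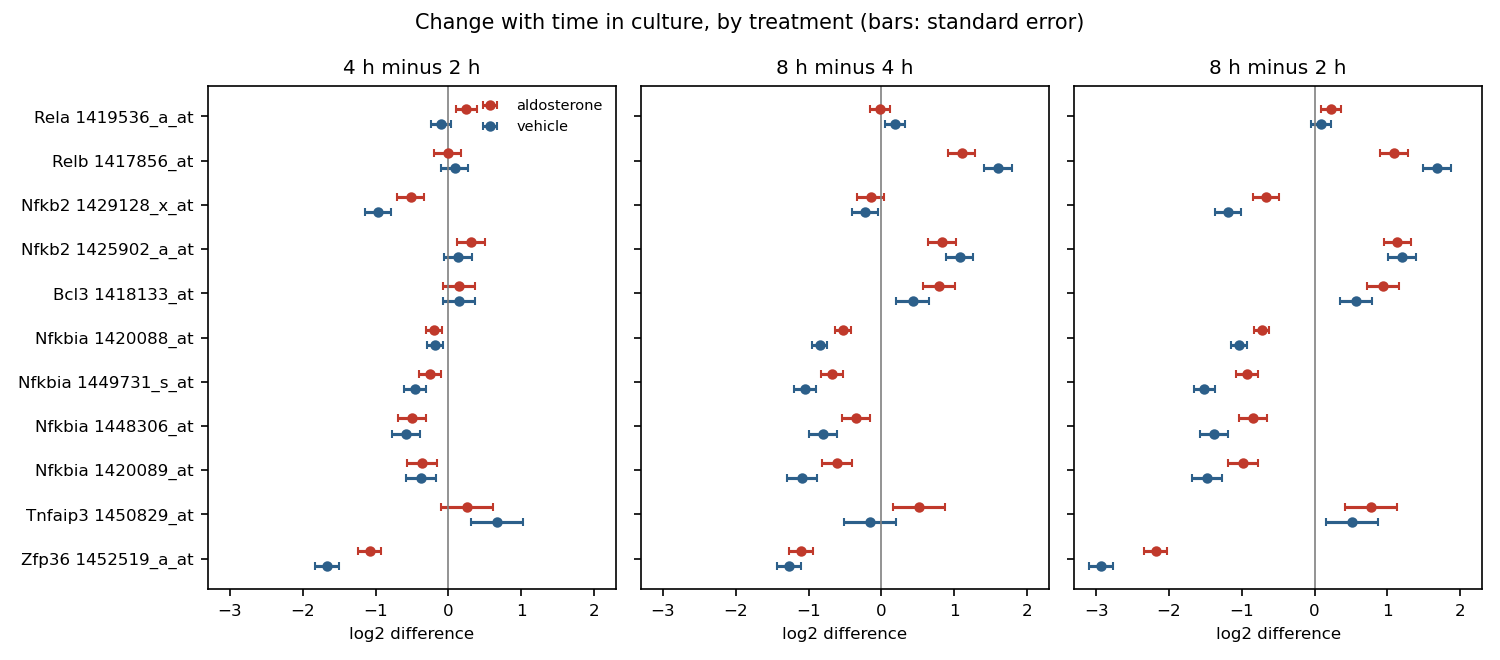
Log2 difference between times in culture for the 11 member probe sets above the filter, aldosterone above vehicle in each pair; points are estimates and bars are standard errors. Zfp36 and all 4 Nfkbia probe sets lie left of 0 for 8 h minus 2 h, Relb and Bcl3 lie right of it, and the 2 Nfkb2 probe sets lie on opposite sides.

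Relb was not called over the first step and rose over the second. Its differences for 4 h against 2 h were -0.01 ± 0.19 under aldosterone and 0.09 ± 0.19 under vehicle, and for 8 h against 4 h they were 1.10 ± 0.19 (adjusted p = 0.00022) under aldosterone and 1.60 ± 0.19 (adjusted p = 5.72e-06) under vehicle. All 8 h samples lay above all samples of 2 and 4 h, as they did against 4 h for 33.4% of genes under aldosterone and 28.8% under vehicle. At 8 h the level was 2.13-fold that at 2 h under aldosterone and 3.21-fold under vehicle, and the test of this difference between treatments gave -0.59 ± 0.27 on the log2 scale (adjusted p = 0.584, and -0.81 with adjusted p = 0.169 without vehicle 2 h replicate 1).

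Bcl3 was at 6.31, 5.81 and 6.32 at 2 h, 6.37, 6.29 and 6.23 at 4 h and 7.21, 7.22 and 6.85 at 8 h under aldosterone. The 8 h samples lay above the earlier ones, with a rise of 0.79 ± 0.22 over the 4 h level (adjusted p = 0.00957) and of 0.94 ± 0.22 over the 2 h level (adjusted p = 0.00155). Under vehicle it had 6.87, 6.35 and 6.03 at 2 h, 6.60, 6.41 and 6.68 at 4 h and 7.39, 6.97 and 6.61 at 8 h, and the times overlapped. The rise of 0.57 ± 0.22 for 8 h against 2 h passed (adjusted p = 0.0352) and lost its call in 6 of 28 alternative settings. That for 8 h against 4 h, 0.43 ± 0.22, did not pass (adjusted p = 0.144).

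The Nfkb2 probe sets moved in opposite directions. On 1429128_x_at the means were 6.99, 6.48 and 6.33 at 2, 4 and 8 h under aldosterone and 7.47, 6.50 and 6.28 under vehicle. The fall by 4 h was 0.52 ± 0.18 under aldosterone (adjusted p = 0.0332, lost in 7 of 28 alternative settings) and 0.97 ± 0.18 under vehicle (adjusted p = 0.00056). On 1425902_a_at the means were 5.88, 6.19 and 7.02 under aldosterone and 5.79, 5.91 and 6.99 under vehicle, and the rise for 8 h against 2 h was 1.14 ± 0.19 (adjusted p = 7.13e-05) under aldosterone and 1.20 ± 0.19 (adjusted p = 4e-05) under vehicle. With the mean of both standing for the gene, 8 h against 2 h gave 0.24 under aldosterone (adjusted p = 0.18) and 0.01 under vehicle (adjusted p = 0.976). The suffix _x_at is the maker's mark for probe sets with probes that can match other transcripts, and which probe set follows the Nfkb2 transcript was not tested.

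Rela was not called between any times in the main fit: for 8 h against 2 h it gave 0.23 ± 0.14 under aldosterone (adjusted p = 0.178) and 0.09 ± 0.14 under vehicle (adjusted p = 0.618). Each of these 2 differences passed in 3 of 28 alternative settings. Without vehicle 2 h replicate 1 the difference under vehicle was 0.27 and passed (adjusted p = 0.0392). In that setting the Rela difference of 0.25 for 4 h against 2 h under aldosterone passed as well (adjusted p = 0.0413, against 0.173 in the main fit). Tnfaip3 gave 0.77 ± 0.36 under aldosterone (adjusted p = 0.0741) and 0.51 ± 0.36 under vehicle (adjusted p = 0.226) for 8 h against 2 h. The aldosterone difference passed in 4 of 27 alternative settings and the vehicle difference in 1 of 27. Every aldosterone 2 h sample of Tnfaip3 lay below the filter level. Without that array the Tnfaip3 differences under vehicle were 0.86 for 8 h against 2 h (adjusted p = 0.0452) and 1.02 for 4 h against 2 h (adjusted p = 0.0305), but every vehicle 2 h and 8 h sample of Tnfaip3 lay below the filter level, so these calls rest largely on values below that level. In that setting 63.6% of all genes passed for 8 h against 2 h under aldosterone and 61% under vehicle, and the array enters the aldosterone comparison through the shared spread alone. The other vehicle changes for 8 h against 2 h without it were 1.91 for Relb, 0.80 for Bcl3 and -1.03 for Nfkbia, each past the threshold. Nfkb2 on its brighter probe set changed by -1.05 and passed as well.

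For single steps, 2 of 7 members passed for 4 h against 2 h under aldosterone and 2 under vehicle, Nfkb2 and Zfp36 in both, against 38.6% of all genes under aldosterone (17.3% higher and 21.3% lower) and 40.2% under vehicle (14.6% and 25.6%). Both fell, Nfkb2 on its brighter probe set alone. Its other probe set gave 0.31 under aldosterone and 0.13 under vehicle for this step, neither called. The 4 h samples lay wholly above the 2 h samples for 1 member under aldosterone (Rela, not called) and 0 under vehicle. Of all genes, 27% and 14.7% showed this. For 8 h against 4 h, 4 passed under aldosterone (Relb, Bcl3, Nfkbia and Zfp36) and 3 under vehicle (the same without Bcl3), against 37.5% of all genes under aldosterone (21% higher and 16.6% lower) and 37.7% under vehicle (20.7% and 17%). Markers and RNA controls also moved with time. The 6 macrophage markers summed to 10.36 to 10.74, 8.95 to 9.69 and 8.00 to 8.49 at 2, 4 and 8 h under aldosterone, and to 10.19 to 11.17, 9.39 to 9.63 and 7.91 to 8.39 under vehicle. The 6 smooth muscle markers summed to 16.09 to 16.16 at 2 h and 14.99 to 15.22 at 8 h under aldosterone, and to 15.56 to 16.05 and 15.13 to 15.37 under vehicle. The 3' minus 5' signal of the Gapdh control, which grows with RNA degradation, averaged 0.61, 0.56 and 0.46 at 2, 4 and 8 h under aldosterone and 0.61, 0.60 and 0.44 under vehicle. That of the beta-actin control averaged 1.84, 1.95 and 1.77 under aldosterone and 1.95, 1.97 and 1.77 under vehicle, without a steady decline. The part of these shifts in the members' changes was not tested.

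Over the 18 samples, which share their order in time, Nfkbia correlated with Zfp36 at Pearson r = 0.89 and with Relb at r = -0.91, and Relb with Bcl3 at r = 0.79. The genes with the pattern most like Zfp36 were Slc35f5 (r = 0.99), Zfand5 (r = 0.987) and the AP-1 gene Junb (r = 0.985), and those most like Nfkbia were Socs3, a feedback inhibitor of cytokine receptors (r = 0.964), Helz and Omd (r = 0.962 each). Relb was most like the mitochondrial protease gene Lonp1 (r = 0.965), the collagenase gene Mmp13 (r = 0.963) and Ninj1 (r = 0.962), and Bcl3 most like Rrp7a (r = 0.944), Tsg101 (r = 0.928) and Rabepk (r = 0.922). Nfkb2 on its brighter probe set, which falls over time where the other rises, was most like Lifr (r = 0.945), Thoc6 (r = 0.943) and Pura (r = 0.935). The other Nfkb2 probe set was not compared. The best matches were weaker for Rela (Ube2v1, r = 0.883, then Tnks2 and Upf2) and for Tnfaip3 (Cpeb1, r = 0.768, then Plet1 and Rasip1).

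Other genes of the pathway were read from lists. For 8 h against 2 h, 29.2% of all genes were called higher and 27.3% lower under aldosterone. Under vehicle the shares were 26.6% and 31.9%. Counts near these shares, in any of the lists below, are not in themselves a result about the list. Of 19 receptors and ligands, 13 were tested, and for 8 h against 2 h 6 rose and 1 fell under aldosterone and 6 rose and 2 fell under vehicle. Il33, an alarmin of the interleukin 1 family, averaged 9.70 at 8 h and 6.91 at 2 h under aldosterone and rose by 2.80 ± 0.28 there and by 2.60 ± 0.28 under vehicle. Il1r1, the interleukin 1 receptor, rose by 1.89 ± 0.18 under aldosterone and 1.90 ± 0.18 under vehicle. Tlr3, a receptor for double-stranded RNA, fell in both, to means of 3.92 under aldosterone and 3.80 under vehicle at 8 h, below the filter level.

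Among 26 kinases and adaptors, 15 were tested, of which 6 rose and 1 fell for 8 h against 2 h under aldosterone and 5 rose and 1 fell under vehicle. Of all genes, 29.2% rose and 27.3% fell under aldosterone, and 26.6% rose and 31.9% fell under vehicle. Ikbkg, the regulatory subunit of IkB kinase, rose by 1.79 ± 0.26 under aldosterone, and Myd88, the adaptor of interleukin 1 and Toll-like receptors, by 1.03 ± 0.21. Traf5, an adaptor of tumour necrosis factor receptors, was the one that fell, by 0.76 ± 0.21 under aldosterone and 0.83 ± 0.21 under vehicle. Of 18 further family members and inhibitors, 12 were tested, and 6 rose and 1 fell under aldosterone and 5 rose and 3 fell under vehicle. Tnip1, a partner of A20, rose by 1.61 ± 0.16 under aldosterone and 1.59 ± 0.16 under vehicle, and Nfkbib, which encodes IkB beta, rose by 1.14 ± 0.18 under aldosterone and 0.99 ± 0.18 under vehicle. Nfkbiz, an atypical nuclear IkB, fell by 0.41 ± 0.13 under aldosterone and 0.92 ± 0.13 under vehicle.

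Of 24 tested among 30 listed NF-kB target genes, 17 rose and 5 fell for 8 h against 2 h under aldosterone and 16 rose and 5 fell under vehicle, with list medians of 1.46 and 1.10 where the medians of all genes were 0.02 and -0.08. Cxcl5, a neutrophil-attracting chemokine, averaged 11.84 at 8 h and 3.49 at 2 h under aldosterone, where all 2 h samples lay below the filter level, and 11.53 at 8 h and 4.23 at 2 h under vehicle. Csf1, the macrophage growth factor, rose by 1.85 ± 0.12 under aldosterone and 1.95 ± 0.12 under vehicle. In the other direction, Gadd45b, a stress response gene, fell by 3.22 ± 0.13 under aldosterone and 4.06 ± 0.13 under vehicle, and the transcription factor gene Irf1 fell by 2.66 ± 0.16 under aldosterone and 3.21 ± 0.16 under vehicle. Without vehicle 2 h replicate 1, the list counts for 8 h against 2 h that moved by more than 1.5 times were those of fallers, with 2 receptors and ligands under aldosterone, and 2 kinases and adaptors and 1 further family member or inhibitor under vehicle, and that of immediate early genes that rose under aldosterone, with 2.

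Of 12 tested immediate early genes, a class that includes Junb, 10 fell and 1 rose in each treatment, with medians of -2.12 under aldosterone and -2.56 under vehicle. Atf3, a stress-induced transcription factor, fell by 3.71 ± 0.11 under aldosterone and 4.03 ± 0.11 under vehicle, and Ier3 was the one that rose. The 2 tested relatives of Zfp36 are Zfp36l1 and Zfp36l2, which also act in mRNA decay. Zfp36l1 fell by 1.46 ± 0.38 under aldosterone and by 1.01 ± 0.38 under vehicle (the vehicle call lost in 9 of 28 alternative settings). Its vehicle 2 h samples ranged from 10.17 to 12.42, and the vehicle difference was -1.74 without vehicle 2 h replicate 1, -0.67 without replicate 2 and -0.61 without replicate 3 of that group. The other relative, Zfp36l2, fell by 0.50 ± 0.12 under vehicle and did not pass under aldosterone.

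**Figure D4:**
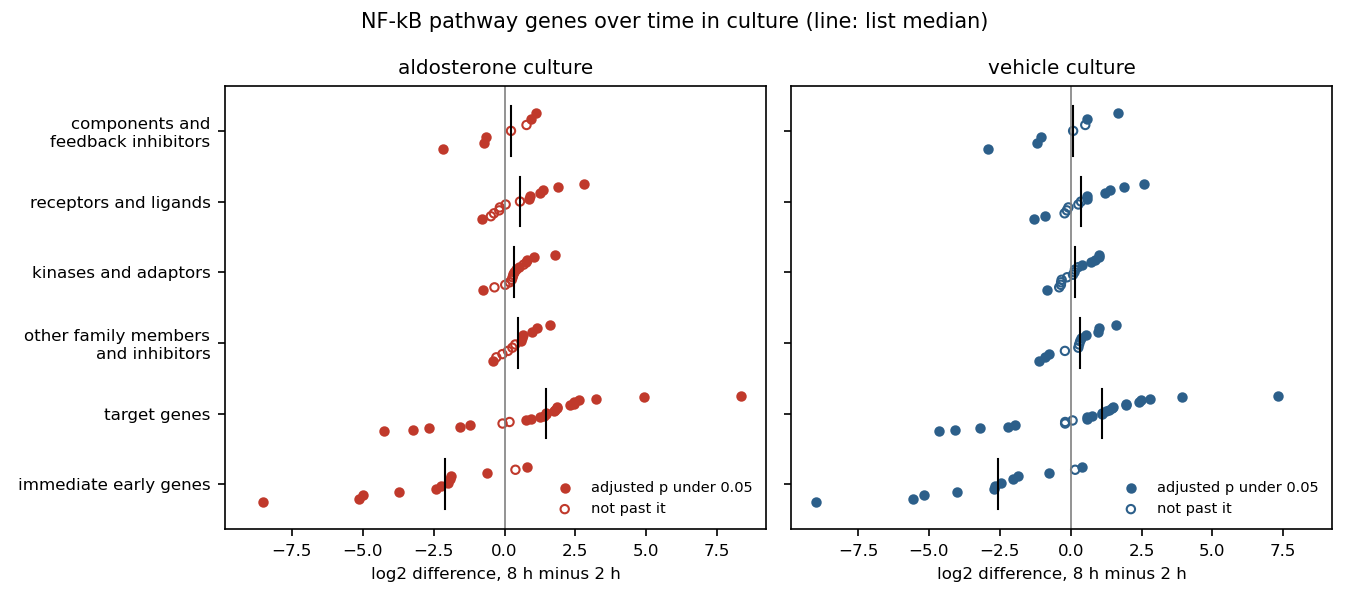
Log2 difference between 8 h and 2 h for each tested gene of the members and of 5 lists of related genes, aldosterone cultures left and vehicle cultures right; filled points passed an adjusted p of 0.05 and black lines are list medians. Target genes lie mostly right of 0, with medians of 1.46 and 1.10, and immediate early genes mostly left, with medians of -2.12 and -2.56.

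Calls among these related genes between aldosterone and vehicle are given here. Of all genes, 0.0705% passed at 2 h, 0.24% at 4 h, 1% at 8 h and 1.1% in the average. Birc2, a ubiquitin ligase that restrains the non-canonical arm, was the one call among 15 kinases and adaptors and rose by 1.17 ± 0.16 at 4 h and 1.92 ± 0.16 at 8 h, with means of 9.50 with aldosterone and 7.59 with vehicle at 8 h. Il1b, an activating cytokine, was the one call among 13 receptors and ligands, lower at 8 h with a mean of 3.73 with aldosterone, every sample below the filter level, and 5.59 with vehicle (adjusted p = 0.0387, lost in 10 of 27 alternative settings). Averaged over the 3 times Il1b was lower by a log2 difference of -1.32 ± 0.24 (adjusted p = 0.00748), a call kept in 26 of 26 settings. Of 24 target genes, Lcn2, an iron-carrier-binding protein, and Csf3, the granulocyte growth factor, rose at 8 h, where 0.86% of all genes rose. The count of 2 ran from 1 to 4 over 28 alternative settings. Lcn2 averaged 5.88 with aldosterone and 3.78 with vehicle (adjusted p = 1.39e-05). Its mean lay above the filter level in the aldosterone 8 h group alone, so this difference rests partly on values below that level. Csf3 averaged 6.02 with aldosterone and 4.74 with vehicle (adjusted p = 0.0288, lost in 8 of 28). None of the 12 further family members and inhibitors and none of the 12 immediate early genes passed at 2, 4 or 8 h or in the average.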

How the data were processed

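The authors deposited log2 values. GCRMA is named in the submitters' processing notes, without version or settings. Scanner files and detection calls were not used here. Annotation assigned 20380 of 22690 probe sets to 1 gene, 691 to several and 1619 (controls included) to none. Of the 1-gene probe sets 20351 matched RefSeq and 11236 exceeded 4 in at least 3 of 18 samples, and the brightest on average stood for each of 7092 genes. Group means were modelled in limma 3.58.1 (R 4.3.3) on every sample, using an intensity trend in eBayes. Residual degrees of freedom were 12, or 17.2 with the prior, and the median within-group standard deviation was 0.235. Benjamini-Hochberg adjustment ran over all genes tested, at 0.05. Further probe sets of members came from an equal model of every probe set past the filter. The model was tested on simulated data. Precision is limited by the number of arrays, and p-values reflect the spread between pools.

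Members and gene lists were chosen with earlier results of these data known. Every member is named. A list could give at most 2 risers and 2 fallers a comparison, by smallest p, and likeness to a member is Pearson r over 18 samples, with the 3 highest named. Alternative settings dropped the trend or the filter, raised the filter to 6, tested each probe set, averaged a gene's probe sets, repeated quantile normalization, centred medians, weighted arrays, added a replicate block, fitted compared groups alone, or left out a sample.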

Additional observations from a re-analysis of the deposited data

Results flagged for a closer look

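For 3 genes outside the member list, the aldosterone effect differed between times by limma's F test, adjusted over 7092 genes. Fkbp5 passed with an adjusted p of 0.00669, Zbtb16, a steroid-induced zinc finger gene, with 5.92e-05, and Lcn2, of the NF-kB target list, with 0.00606. Lcn2 averaged 3.44 with aldosterone and 3.21 with vehicle at 2 h, 3.55 with aldosterone and 3.31 with vehicle at 4 h, and 5.88 with aldosterone and 3.78 with vehicle at 8 h. All of these Lcn2 means but that of aldosterone at 8 h lay below the filter level, so its differences rest largely on values below that level. No member passed this test.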

How the results depend on the processing

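With array weights 1 member (Relb) passed for aldosterone against vehicle at 8 h. For 4 h against 2 h under aldosterone 1 member passed with no filter and 1 with the mean of probe sets, and 1 to 3 when a sample was left out, 1 without any of aldosterone 2 h replicates 1, 2 and 3 or aldosterone 4 h replicate 3, and 3 without vehicle 2 h replicate 1. In the main fit 38.6% of all genes passed in this comparison. The shares of all genes in these settings are not given here, so the counts are not in themselves a result about the members. The Bcl3 call for 8 h against 2 h under vehicle was lost with no filter (adjusted p = 0.0537), with the compared groups alone (0.151) and without vehicle 2 h replicates 2 and 3 or vehicle 8 h replicates 1 and 2. Leaving out a sample gave 4 to 7 calls for 8 h against 2 h under vehicle, 7 without vehicle 2 h replicate 1, where 61% of all genes passed. In the main fit 58.5% of all genes did. The cause of each change was not tested. Over all genes, the calls of aldosterone against vehicle moved more: 5 at 2 h (0 with the compared groups alone, 54 with array weights, 29 without vehicle 2 h replicate 1, 26 without vehicle 2 h replicate 3, 1 without aldosterone 2 h replicate 2), 17 at 4 h (42 with array weights, 5 without aldosterone 4 h replicate 2), 71 at 8 h (222 with array weights, 33 without aldosterone 8 h replicate 2) and 78 in the average (260 with array weights, 146 without vehicle 2 h replicate 1). Same-numbered pairs of samples had a mean correlation of deviations of -0.001, with 6 of 45 above 0.1 and a highest of 0.282. Pairs of different numbers had a mean of 0.0, with 13 of 90 above 0.1. These averages show no general pairing by number but cannot exclude it between some groups, and the labels do not say what a number marks. With a replicate block, 0 members passed in each aldosterone comparison and in the test between times, 2, 3 and 5 under vehicle (4 h against 2 h, 8 h against 4 h and 8 h against 2 h) and 2, 4 and 5 under aldosterone, as without it.

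Direction changed as follows, in differences that had not passed except the Nfkb2 values for 8 h against 2 h. With the mean of probe sets Nfkb2 was 0.13 for aldosterone against vehicle at 4 h, 0.34 and 0.24 under aldosterone (8 h against 4 h and 8 h against 2 h), and 0.42 (adjusted p = 0.0309, past the threshold) and 0.0059 in the same order under vehicle, and Nfkbia averaged over times was 0.047. With median centring Nfkbia was 0.031 at 2 h and 0.034 averaged, Relb was 0.0023 at 4 h and 0.00085 for 4 h against 2 h under aldosterone, and Rela was 0.035 for 4 h against 2 h under vehicle. With quantile normalization Zfp36 was -0.014 at 4 h and Relb was 0.041 for 4 h against 2 h under aldosterone. With array weights Bcl3 was 0.018 at 2 h, Zfp36 was -0.057 at 4 h and Rela was 0.0903 for 4 h against 2 h under vehicle.

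Leaving out a sample also turned signs, again in differences that had not passed. For aldosterone against vehicle at 2 h Relb ran from -0.034 to 0.30 and Tnfaip3 from -0.20 to 0.58. At 4 h Nfkb2 ran from -0.092 to 0.0605, Relb from -0.10 to 0.094, Tnfaip3 from -0.47 to 0.15 and Zfp36 from -0.12 to 0.11. At 8 h Nfkb2 ran from -0.0596 to 0.12 and Bcl3 from -0.089 to 0.30, and in the average Nfkbia ran from -0.051 to 0.018 and Rela from -0.082 to 0.013. For 4 h against 2 h, Relb ran from -0.098 to 0.10, Bcl3 from -0.018 to 0.24 and Tnfaip3 from -0.029 to 0.51 under aldosterone, and Rela from -0.20 to 0.083, Relb from -0.028 to 0.31 and Bcl3 from -0.046 to 0.37 under vehicle. For 8 h against 4 h, Rela ran from -0.094 to 0.021 under aldosterone and Tnfaip3 from -0.36 to 0.17 under vehicle, and for 8 h against 2 h under vehicle Rela ran from -0.018 to 0.27. No detection limit beyond the filter level was set, so values near 4, such as those of Tnfaip3, are imprecise.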
